A study of Mus musculus with 100 samples.

Results

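Whole knee joints of C57BL/6 and MRL/MpJ mice were compared by RNA sequencing 1 day after rupture of the anterior cruciate ligament. The comparison used the 5 injured C57BL/6 libraries and the 5 injured MRL/MpJ libraries of 1-day post-injury, chosen by their labels, which is 10 of the 100 libraries of the series, and all 17310 genes of the count table. Mice of both strains were 10 weeks old, and the study's methods name the substrain C57BL/6J where the labels write C57BL/6. The right knee received a single compressive load of 10 to 12 N on the tibia, and the left, contralateral knee was not loaded. According to the study's methods, both strains received buprenorphine for pain, so the injured groups shared injury and analgesic and differed in strain. The labels call C57BL/6 moderately susceptible and MRL/MpJ not susceptible to post-traumatic osteoarthritis. Joints were cut out with bone, marrow, cartilage, synovium, ligament and traces of muscle. The labels do not say whether each library came from a separate animal, so p-values measure the spread between libraries. That spread was estimated over all 30 libraries of 1-day, which include contralateral joints and joints of another strain, STR/ort.

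After a ligament tear the joint fills with blood and leukocytes, synovial and ligament fibroblasts begin to make collagens and matricellular proteins, and matrix is cut by metalloproteinases and ADAMTS enzymes. MRL/MpJ is an inbred strain known for closing ear holes and for milder joint disease after injury, and C57BL/6 is the usual laboratory strain and the source of the mouse reference genome. A difference in level between 2 inbred strains can be present before any injury, which is why the contralateral joints and the uninjured joints of 0-day (4 libraries a strain) are given beside the injured ones.

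Reads counted on genes ranged from 7556012 to 12940434 in the injured C57BL/6 libraries and from 10230445 to 11740068 in the injured MRL/MpJ libraries. On the first principal component, with 69.9% of the variance of 10717 genes, all 5 libraries of each strain lay apart from those of the other. Pearson correlations of log2 CPM (counts scaled to a common library size, per 1e+06 reads) across these genes were 0.983 to 0.992 within C57BL/6, 0.9803 to 0.9936 within MRL/MpJ and 0.931 to 0.961 between strains. A pair of libraries stood apart on the second component (10.1% of the variance), C57BL/6 replicate 3 at -12.38 and MRL/MpJ replicate 5 at -18.34. At the other end lay C57BL/6 replicate 2 at 10.87 and MRL/MpJ replicate 3 at 10.26, which were not left out together. C57BL/6 replicate 3 and MRL/MpJ replicate 5 also had the most fast muscle RNA of their groups. The 17 fast muscle markers summed to 76260 CPM in C57BL/6 replicate 3, against 49000 to 56650 in the other C57BL/6 libraries, and to 113200 CPM in MRL/MpJ replicate 5, against 64370 to 77760 in the others. Cartilage markers summed to 2342 CPM in C57BL/6 replicate 3 and to 5219 to 7022 in the others of its group. Values without both libraries, a choice made after seeing the data, are given for the gene groups in which the calls moved by more than 1 gene and over 1.5 times.

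**Figure D1:**
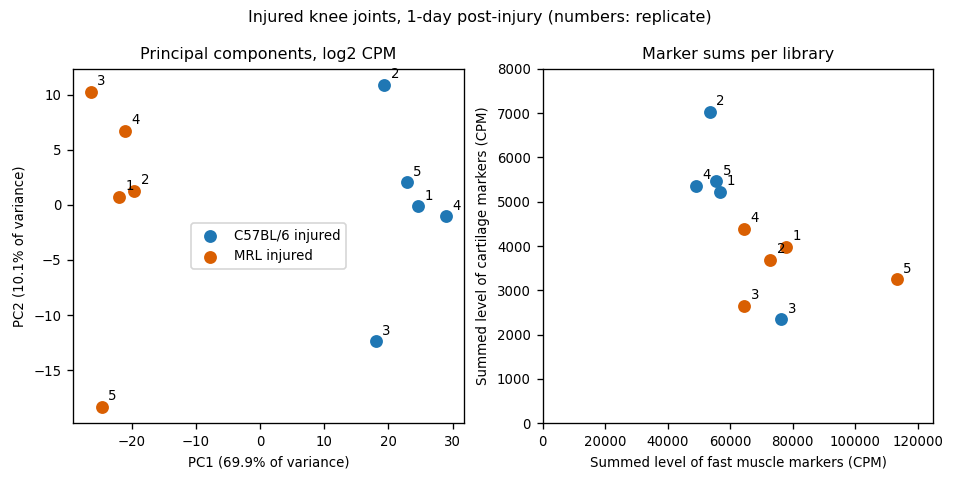
Principal components of the 10 injured libraries (left, PC1 with 69.9% and PC2 with 10.1% of the variance) and the summed level of 20 cartilage markers against that of 17 fast muscle markers in CPM (right). Each point is a library, numbered by replicate, and C57BL/6 replicate 3 and MRL/MpJ replicate 5 lie low on PC2 and to the right of their groups in muscle RNA.

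Genes counted as called passed 2 limits, an adjusted p below 0.05 (Benjamini-Hochberg, from the quasi-likelihood test of edgeR) and a fold change above 1.5. In injured joints 2828 genes were called (16.3% of the genes tested), 1733 of them higher in C57BL/6 (10.0%) and 1095 lower (6.33%). Every C57BL/6 library was above every MRL/MpJ library for 2360 genes (13.6%), and below for 2040 (11.8%). Without the pair of libraries that stood apart, 2801 genes were called. The split of calls depended on the scaling, since 1478 genes were higher and 1346 lower when the libraries were scaled by 25 housekeeping genes. All fold changes below are C57BL/6 over MRL/MpJ, so a negative log2 value means a higher level in MRL/MpJ. In whole joints, fewer cells of a type and less RNA per cell cannot be told apart. Reads were aligned to the C57BL/6 genome, and a lower level of an MRL/MpJ gene cannot be told apart from reads lost at divergent sequence.

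The genes that led the list of higher levels in C57BL/6 were separated from MRL/MpJ in all 10 libraries. Trim12a, a TRIM protein of a cluster of antiviral factors (chromosome 7, 104299893 to 104315558, GRCm38.p6), was at 32.9, 44.5, 38.1, 33.4 and 41.1 CPM in injured C57BL/6 and at 0, 0.81, 0.0961, 0.454 and 0.186 CPM in injured MRL/MpJ. That is a log2 fold change of 6.85 (SE 0.23, adjusted p = 2.54e-20), and it was 6.63 in contralateral joints. Hba-a2, an alpha globin gene (chromosome 11, 32296492 to 32297310), was at 1196, 1757, 1457, 1141 and 1455 CPM against 6.05, 6.3, 7.01, 3.82 and 3.35 CPM. Its near-identical copy Hba-a1 is not among the genes analysed here and reads shared by the copies make the Hba-a2 level uncertain. Mamdc2, a secreted MAM domain protein, averaged 16.7 ± 3.65 CPM (SD, n = 5) against 0.391 ± 0.155. Capg, an actin filament capping protein of macrophages, averaged 92.0 ± 9.27 CPM against 16.6 ± 3.52 (log2 fold change 2.47, SE 0.11). Apobec3, a cytidine deaminase that restricts retroviruses, averaged 108 ± 12.1 CPM against 31.5 ± 3.85. The other leading genes were C4b (2.93), Pid1 (1.43) and Trim30d (3.55), with the log2 fold change in brackets. C4b encodes complement component 4, and Pid1 an adaptor with a phosphotyrosine-binding domain.

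Among genes higher in MRL/MpJ, Ceacam2 led. This adhesion molecule of the carcinoembryonic antigen family (chromosome 7, 25516042 to 25540004) was at 0.119, 0.257, 0.401, 0.307 and 0 CPM in injured C57BL/6 and at 32.5, 39.4, 37.5, 36.1 and 36.9 CPM in injured MRL/MpJ (log2 fold change -7.36, SE 0.19, adjusted p = 7.21e-24). No C57BL/6 library reached the lowest MRL/MpJ value. Hal, histidine ammonia-lyase, which degrades histidine, averaged 1.72 ± 0.483 CPM in C57BL/6 and 36.6 ± 7.22 in MRL/MpJ. Alad, an enzyme of heme synthesis, averaged 45.1 ± 6.47 against 252 ± 17.4 CPM, and Zfp949, a zinc finger protein, 22.6 ± 3.35 against 99.9 ± 3.98 CPM. The remaining leaders, AI506816, AA465934, Hmgb1-rs17 and Natd1, had log2 fold changes of -3.10, -3.38, -3.13 and -1.73. Hmgb1-rs17 is a sequence related to Hmgb1 and may share reads with it. The 16 leading genes were all called in the same direction in contralateral joints and at 0-day.

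**Figure D2:**
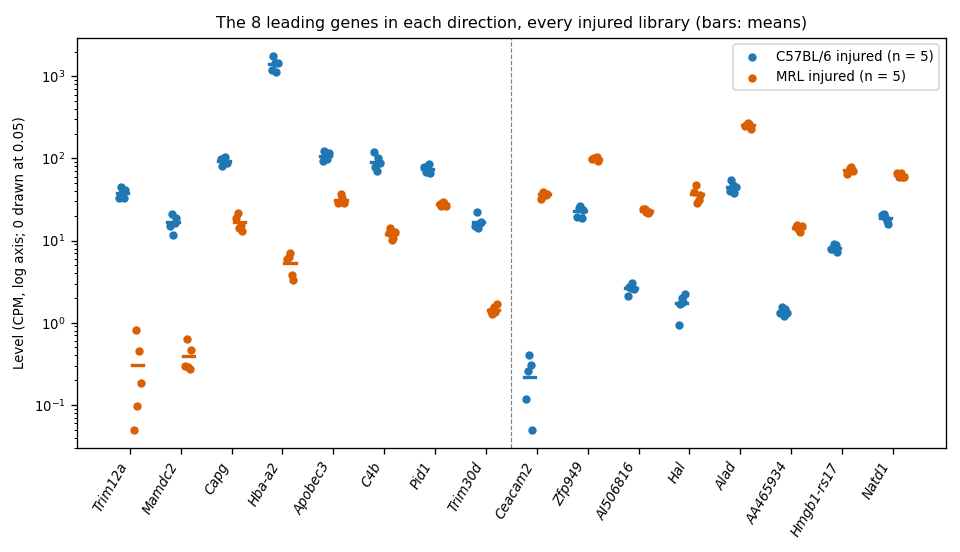
Level of the 8 leading genes of each direction, in CPM on a log axis, with 1 point per injured library (C57BL/6 blue, MRL/MpJ orange, n = 5 each), a bar at the mean, and 0 drawn at 0.05. For every gene the libraries of the strains occupy separate ranges, from Hba-a2 above 1000 CPM in C57BL/6 to Ceacam2 below 1 CPM.

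A few genes were listed at 0 counts in all 5 libraries of a strain and had at least 10 counts in every library of the other. In MRL/MpJ these were Skint3, a member of a family expressed in skin and thymus, the antiviral factor Trim5, and the immunoglobulin segment Ighv9-3. In C57BL/6 they were 4931408C20Rik, Ifi44l, the meiosis gene Ccnb1ip1 and the cone opsin Opn1mw. Against a floor of 3 counts over the group, Skint3 was at least 81.2-fold higher in C57BL/6 and Trim5 at least 46.4-fold. In MRL/MpJ, 4931408C20Rik was at least 105.0-fold, Ifi44l at least 73.0-fold and Ccnb1ip1 at least 69.6-fold higher. All 7 were called the same way in contralateral joints and at 0-day.

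Interferon-stimulated genes were mostly higher in C57BL/6. Type I interferons act through transcription factors that bind promoters at repeats of GAAA. The promoters shown are those of the 4 called interferon-stimulated genes with the lowest adjusted p, whether or not they hold such a repeat. Each runs from 250 bases before to 50 after the RefSeq start on GRCm38.p6. Capitals mark matches, on either strand, to a pair of GAAA with any 2 bases between them, where a match to the other strand reads as a pair of TTTC.
Ifit3, chr19:34583279-34583578, plus strand: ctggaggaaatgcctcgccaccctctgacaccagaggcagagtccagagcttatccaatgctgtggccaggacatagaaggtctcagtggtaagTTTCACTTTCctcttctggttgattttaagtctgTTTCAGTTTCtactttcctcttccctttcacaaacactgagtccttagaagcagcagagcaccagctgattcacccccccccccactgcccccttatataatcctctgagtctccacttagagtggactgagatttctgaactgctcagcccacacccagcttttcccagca
Isg15, chr4:156200769-156201068, minus strand: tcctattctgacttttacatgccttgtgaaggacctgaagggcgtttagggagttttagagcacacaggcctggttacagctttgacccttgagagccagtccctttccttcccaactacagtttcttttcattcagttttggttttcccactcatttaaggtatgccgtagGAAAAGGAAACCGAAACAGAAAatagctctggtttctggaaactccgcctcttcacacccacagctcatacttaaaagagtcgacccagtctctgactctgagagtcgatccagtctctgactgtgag
Oasl2, chr5:114896684-114896983, plus strand: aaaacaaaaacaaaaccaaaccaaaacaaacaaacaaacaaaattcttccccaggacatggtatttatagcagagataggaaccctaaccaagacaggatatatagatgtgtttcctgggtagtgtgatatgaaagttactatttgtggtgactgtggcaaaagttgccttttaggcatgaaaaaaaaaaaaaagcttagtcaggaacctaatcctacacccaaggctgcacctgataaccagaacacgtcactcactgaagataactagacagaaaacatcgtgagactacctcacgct
Ifi44l, chr3:151762842-151763141, minus strand: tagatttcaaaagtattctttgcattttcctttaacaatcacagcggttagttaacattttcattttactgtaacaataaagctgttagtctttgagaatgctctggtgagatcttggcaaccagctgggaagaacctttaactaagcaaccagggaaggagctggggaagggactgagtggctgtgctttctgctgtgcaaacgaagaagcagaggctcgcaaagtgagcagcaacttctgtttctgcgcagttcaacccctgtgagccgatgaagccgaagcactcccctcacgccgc

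Ifit3 held 2 matches on the other strand and Isg15 held 3 overlapping matches on its own strand, while Oasl2 and Ifi44l held none in this window. A match occurred in 16 of the 28 promoters found for the interferon list (57.1%), in 9 of the 14 whose gene was called higher in C57BL/6 (64.3%), and in 3.49% of all 27025 promoters. A match is a stretch of letters and was not tested as a binding site, and the sequence is that of the reference, not of MRL/MpJ.

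Of 35 interferon-stimulated genes measured, 18 were called higher in injured C57BL/6 and 2 lower, with a median log2 fold change of 0.67 against -0.005 over all genes. Isg15, a ubiquitin-like modifier, was at 44.8, 82.7, 44.9, 50.8 and 36.2 CPM in injured C57BL/6 and at 13.3, 10.9, 22.8, 16.9 and 13.2 CPM in injured MRL/MpJ (log2 fold change 1.75, adjusted p = 1.09e-05). Ifit3, which binds viral RNA complexes, averaged 16.1 ± 3.98 CPM against 3.14 ± 1.17, and Oasl2, of the oligoadenylate synthetase family, 42.1 ± 11.4 against 7.95 ± 2.86. The strains did not overlap for these 3 genes. C57BL/6 replicate 2 was the highest of its group for each. Oas1a, Oas2, Ifit1 and Irf7 had log2 fold changes of 1.82, 1.87, 1.67 and 1.22. The members higher in MRL/MpJ were Ifi44l, at 0 in every C57BL/6 library, and the exonuclease Isg20 (-0.59). Contralateral joints had 21 members higher and 1 lower, with a median of 0.79. None of the interferon genes named here was called in the response to injury of either strain. With 1 factor of unwanted variation removed (RUVg), 12 members were higher and 3 lower.

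The clusters of Trim genes on chromosome 7 and of Ifi200 genes on chromosome 1, which include sensors of foreign DNA and inhibitors of retroviruses, differed in both directions. Of 17 members, 11 were higher in injured C57BL/6 and 2 lower. Beside Trim12a, Trim5 and Trim30d, the members Trim34a (1.60) and Ifi204 (1.35) were higher. Trim12c, the copy nearest to Trim12a, was at 58.2 ± 8.09 against 65.6 ± 6.98 CPM and was not called. Trim34b was lower (-3.27), which makes the values of both Trim34 copies uncertain, since reads can be split between near copies. Ifi202b, a gene that C57BL/6 is known not to express, was at 0.356, 0, 0.134, 0.23 and 0 CPM in C57BL/6 and at 18.4, 23.1, 28.4, 27.8 and 21.3 CPM in MRL/MpJ.

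Genes of antigen presentation lie mostly in the major histocompatibility complex on chromosome 17, where the strains carry different haplotypes. Of 32 measured, 11 were higher in injured C57BL/6 and 5 lower. The class II chain gene H2-Ab1 was at 173, 162, 189.5, 186 and 172 CPM against 45.4, 36.0, 49.3, 43.9 and 36.5 CPM, and H2-D1, a class I gene, averaged 256 ± 20.2 against 66.2 ± 7.88 CPM. Cd74, the invariant chain (0.95), and Ciita, the class II transactivator (1.01), were also higher. H2-Ea-ps, the class II E alpha gene that lacks its promoter in C57BL/6, was at 0, 0, 0.134, 0 and 0 CPM in C57BL/6 and between 10.9 and 18.2 CPM in MRL/MpJ. H2-Q1 (-3.34) and H2-Q2 (-3.25) were lower as well. These genes are highly polymorphic, so reads of MRL/MpJ alleles may be lost, and H2-Ab1 did pass the test of the injury response in C57BL/6 (0.79, adjusted p = 0.000453) but not in MRL/MpJ (0.34, adjusted p = 0.327), while the difference between these responses was not called (0.45, adjusted p = 0.451).

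In the complement system, 11 of 23 genes were higher in injured C57BL/6 and 3 lower. C4b was at 121, 77.8, 70.8, 102 and 87.7 CPM against 12.4, 14.1, 10.2, 10.8 and 12.8 CPM. Its near-identical neighbour C4a went the other way (0.41 ± 0.197 against 1.35 ± 0.277 CPM), so how reads were divided between the copies leaves both uncertain. The chains of C1q, which starts the classical pathway, were higher (C1qb 1.55, C1qc 1.43, C1qa 0.72), as were C1s1 (1.28), factor B (Cfb, 1.08), factor D (Cfd, 1.22) and the receptor C3ar1 (1.34). The central component C3 averaged 739.7 ± 85.6 against 618 ± 67.2 CPM and was not called. Masp2, a protease of the lectin pathway, averaged 0.0452 CPM in C57BL/6 and 1.13 CPM in MRL/MpJ.

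Most chemokines and inflammatory cytokines did not pass the test between the strains in injured joints. In the group of 19 CC chemokines and receptors 1 was called, and with 1 RUVg factor 3 were higher and 1 lower. In contralateral joints 5 were higher and 1 lower, and at 0-day 7 and 1. The gene called in the main test was Ccl8, which attracts monocytes, with 6.92 ± 3.07 against 2.97 ± 0.919 CPM (log2 fold change 1.23, adjusted p = 0.00482). Ccl2, which recruits monocytes, was at 7.71, 5.91, 8.95, 9.97 and 6.58 CPM in injured C57BL/6 and at 10.8, 13.3, 8.84, 11.2 and 10.2 CPM in injured MRL/MpJ, and it was not called (-0.47, SE 0.27). Against the contralateral joints of its own strain it rose in both, by 3.31 on the log2 scale in C57BL/6 and 3.65 in MRL/MpJ. Il6 was at 1.59 ± 0.781 against 1.34 ± 0.472 CPM, with a log2 difference of 0.27 (SE 0.34), and it rose with injury by 2.46 and 2.36. Ccl7 averaged 13.5 ± 4.66 against 12.7 ± 2.64 CPM. Its log2 fold change of 0.11 became -0.10 without C57BL/6 replicate 4.

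Of 16 CXC chemokines and receptors, 3 were higher and 3 lower. Cxcl5, a neutrophil attractant, was at 15.1, 6.17, 9.62, 31.4 and 11.3 CPM against 4.37, 8.19, 4.32, 5.09 and 6.15 CPM, so the groups overlapped. Its log2 fold change was 1.43 (SE 0.31, adjusted p = 0.000379). Cxcl16, a membrane-bound chemokine, averaged 20.8 ± 3.87 against 8.08 ± 0.56 CPM without overlap, and Cxcl13 was higher as well (1.45). Cxcr2, the neutrophil receptor (-1.06), Cxcl11 (-1.44) and Ppbp, of platelets (-0.68), were lower in C57BL/6. Cxcl11 rested on few reads, 3 to 6 counts in C57BL/6 and 6 to 28 in MRL/MpJ, with the most in MRL/MpJ replicate 3. That library also had 688 counts of Cxcl9, against 61 to 122 in the other MRL/MpJ libraries, and 361 of Gbp2, against 126 to 138. In the interleukin-1 and TNF group 3 of 17 were higher and 3 lower. The alarmin Il33 averaged 29.1 ± 10.4 against 13.5 ± 1.98 CPM, the inflammasome adaptor Pycard (1.08) and the receptor Tnfrsf1b (0.71) were higher, and Tnf (-0.73), Il1a (-1.01) and the receptor antagonist Il1rn (-0.73) were lower. In the IL-6 family the receptor gene Il11ra1 was higher (53.4 ± 6.3 against 14.8 ± 1.13 CPM), and Il6st, the shared signal transducer, had 0.61, which fell under the fold limit without MRL/MpJ replicate 4 (0.58), C57BL/6 replicate 1 (0.57) or C57BL/6 replicate 4 (0.56). Among Toll-like receptors and their partners 4 of 15 were higher, Tlr9 (1.22), Tlr3 (0.82), Tlr1 (0.65) and Cd14 (0.65), and Tlr6 was lower (-0.94). With housekeeping scaling 2 members of this list were higher.

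Genes of the fibrous matrix were mostly higher in C57BL/6. Of 18 fibrous and fibril-associated collagens, 13 were higher and 1 lower in injured C57BL/6, with a median of 1.05 in injured and 0.75 in contralateral joints. Col3a1, the collagen of early repair tissue, was at 7161, 4638, 5300, 8642 and 6262 CPM in C57BL/6 and at 1615, 2044, 1281, 1457 and 1558 CPM in MRL/MpJ, with no overlap (2.01, SE 0.18, adjusted p = 1.82e-10). Col14a1, which binds to fibrils, averaged 185 ± 19.7 against 31.2 ± 4.6 CPM, and Col6a1, of the network around cells, 638 ± 129 against 224 ± 32.6 CPM. Col1a2 was called (0.60) and Col1a1 was not (0.55). Col6a5 was the member that was lower (-2.40).

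Of 29 matricellular proteins, small leucine-rich proteoglycans and crosslinking enzymes, 20 were higher and 0 lower, as in contralateral joints, with medians of 0.97 and 0.84. Postn, periostin, a matricellular protein of wounds, ligament and periosteum, was at 1595, 1096, 1544, 1889 and 1483 CPM against 422, 416, 392, 373 and 399 CPM. The 5 MRL/MpJ libraries lay within a narrow range, and the lowest C57BL/6 library was above all of them. Thbs2, thrombospondin 2, averaged 402 ± 52.3 against 113 ± 8.61 CPM, Aspn, asporin, 216 ± 25 against 61.2 ± 3.42, and Ogn, osteoglycin, 164 ± 14.4 against 52.6 ± 9.47. Thbs3 (1.99), the crosslinking enzyme gene Lox (1.39), Bgn (1.31) and fibronectin, Fn1 (1.04), were higher, while Tnc (0.38) and Sparc (0.53) were not called. Serpinh1, the collagen chaperone of the heat shock list, was at 499.5 ± 92.8 against 204 ± 37.5 CPM.

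Cartilage genes differed in the same direction but less firmly. Of 20, 11 were higher and 0 lower in injured C57BL/6, against 18 and 0 in contralateral joints, with medians of 0.77 and 1.24. Comp, cartilage oligomeric matrix protein, was at 446, 448, 255, 484 and 516 CPM against 208, 179, 137, 223 and 197 CPM. Aggrecan, Acan, was at 407, 451, 149.5, 414 and 404 CPM against 239, 259, 154, 247 and 188 CPM, so C57BL/6 replicate 3 fell below every MRL/MpJ library. Col2a1, the main collagen of cartilage, averaged 1711 ± 712 against 1311 ± 298 CPM and was not called (0.38, adjusted p = 0.279). Without the pair of libraries that stood apart 13 members were higher, and with 1 RUVg factor 3 were. Among 14 osteoblast and osteocyte genes only Sost, the Wnt inhibitor of osteocytes, was called (30.8 ± 7.95 against 17.8 ± 1.34 CPM), against 9 higher and 1 lower in contralateral joints. With 1 RUVg factor this call was lost (0.56, adjusted p = 0.059). Of 12 osteoclast and RANKL genes Oscar (1.95), Tnfsf11 (0.94) and Atp6v0d2 (0.61) were higher and Itgb3 (-0.73) lower. The call of Atp6v0d2 was lost without C57BL/6 replicate 2, C57BL/6 replicate 5 or MRL/MpJ replicate 5, and with 1 RUVg factor (0.34, adjusted p = 0.0903).

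Of 15 synovial, tendon and ligament genes, 10 were higher and 0 lower. Kera, keratocan, of tendon, was at 66.5, 63.0, 61.5, 60.8 and 82.3 CPM against 16.1, 12.3, 9.7, 15.0 and 20.8 CPM. Cilp (1.49), the tendon gene Tnmd (1.23), the hyaluronan synthase Has2 (1.23) and Thy1, of fibroblasts (1.15), were also higher. Prg4, lubricin, was at 3592 ± 594 against 3140 ± 654 CPM and was not called.

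Among matrix proteases, 7 of 19 MMPs and their inhibitors were higher and 2 lower. Mmp12, macrophage elastase, averaged 3.83 ± 1.81 against 0.785 ± 0.216 CPM, the gelatinase gene Mmp2 361 ± 54.3 against 157 ± 16.7, and the stromelysin gene Mmp3 31.4 ± 10.9 against 17.1 ± 4.28. Mmp14 (0.87) and the inhibitors Timp1 (0.85) and Timp2 (0.83) were higher. The inhibitor Timp4 was lower (2.80 ± 0.565 against 6.62 ± 0.636 CPM), as was Mmp25 (-0.82). The collagenase gene Mmp13 was at 476 ± 82.3 against 380.5 ± 47.4 CPM and was not called in injured joints, although it was in contralateral joints (0.80). In the ADAMTS family 10 of 20 were higher and 0 lower, led by Adamts12 (1.40), Adamts16 (1.81) and Adamtsl1 (1.31). The aggrecanase genes Adamts4 (0.28) and Adamts5 (0.53) did not pass both limits. Adamts4 rose with injury in both strains, by 1.68 in C57BL/6 and 1.80 in MRL/MpJ.

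In the Wnt pathway 10 of 27 genes were higher in injured C57BL/6 and 0 lower. Sfrp2, a secreted Wnt modulator, was at 127, 81.6, 131, 145 and 104 CPM against 16.4, 16.3, 12.4, 16 and 17.6 CPM. Rspo2, a ligand that enhances Wnt signals (1.95), the secreted protein Dkk3 (60.6 ± 8.61 against 21.4 ± 1.65 CPM) and the receptor gene Fzd2 (1.40) were higher. In the TGF-beta and BMP group 8 of 27 were higher and 2 lower. Ltbp2, a latent TGF-beta binding protein family member, averaged 105 ± 31.7 against 34.1 ± 5.75 CPM, Tgfb3 (0.87) and Tgfb2 (0.74) were higher, and the BMP antagonist genes Nog (-0.95) and Grem1 (-0.64) lower. Of 12 IGF genes 4 were higher, Igfbp2 (1.91), Igfbp6 (1.34), Igf1 (0.81) and Igfbp7 (0.68).

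A minority of skeletal muscle fibre genes was called in injured joints, each of them lower in C57BL/6 in the main test, and the count depended on the processing. All 17 fast muscle genes had a log2 fold change below 0, with 4 called and a median of -0.33, but under 1 RUVg factor the median was 0.21 and 1 was called. At 0-day 15 of the 17 were called lower in C57BL/6, with a median of -0.82, and in contralateral joints 5, with a median of -0.44. Myh2, the myosin of fast oxidative fibres, was at 281, 362, 431, 236 and 477 CPM against 1488, 1241, 1238, 1062 and 1713 CPM (-1.92, SE 0.39). Of 12 slow muscle genes 4 were lower, Mb, Myoz2, Tnnt1 and Myl3, and 2 without the pair of libraries that stood apart. With 1 RUVg factor 1 slow muscle gene was higher and 1 lower, with a median of -0.21, and at 0-day 6 were lower. The call of Tnnt1 (-1.43) was lost without C57BL/6 replicate 1, 3 or 4 or MRL/MpJ replicate 5. The summed level of slow muscle genes was 1742 to 2064 CPM in C57BL/6 and 2697 to 3828 CPM in MRL/MpJ, and the part of muscle content in these differences was not tested. Of 20 genes of muscle stress and regeneration 7 were lower and 1 higher, and 4 were lower without that pair of libraries and 3 with 1 RUVg factor. Ankrd1, a stress-responsive repeat protein, was at 63.0, 24.6, 108, 119 and 37.9 CPM against 152, 534, 308, 289 and 582 CPM. It rose with injury in both strains, by 2.12 and 3.58 on the log2 scale, and these responses were not called different (-1.46, adjusted p = 0.269). Csrp3 (-2.38) and Ankrd2 (-2.27), of the same stretch-responsive set, were lower by similar amounts in contralateral joints (-2.36 and -2.17). At 0-day the difference was -1.11 for Csrp3, which was called, and -0.34 for Ankrd2, which was not (adjusted p = 0.257). Fbxo32, a ubiquitin ligase of muscle atrophy, was lower (-0.79), but not with 1 RUVg factor (-0.22, adjusted p = 0.456), without MRL/MpJ replicate 5 (-0.49, adjusted p = 0.0914) or without the pair of libraries that stood apart (-0.57, adjusted p = 0.0657). Chrng, the fetal acetylcholine receptor subunit, was higher at low levels, 0.343 ± 0.239 against 0.0552 ± 0.0813 CPM.

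Red cell genes were mostly lower in C57BL/6. Of 13 erythroid genes 12 were lower in injured C57BL/6, with a median of -0.71, while 7 were lower at 0-day (median -0.59) and 4 in contralateral joints (median -0.37). Hbb-bs, a beta globin gene, was at 121, 88.7, 67.6, 57.1 and 68.5 CPM against 214, 234, 243, 233 and 231 CPM. The beta globin genes Hbb-bt and Hbb-b1 are not among the genes analysed here, so reads shared by copies may make the Hbb-bs level uncertain too. Car1, carbonic anhydrase 1 (-1.61), Klf1, the erythroid transcription factor (-0.97), and Alas2, of heme synthesis (-0.67), were lower. Hba-a2 was the exception.

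Among leukocyte markers, 7 of 16 macrophage genes were higher and 3 lower. Adgre1, the F4/80 antigen, averaged 122 ± 14.1 against 46.1 ± 5.31 CPM, without overlap. Folr2, of tissue-resident macrophages (1.73), and Csf1r, the receptor for their growth factor (1.01), were higher, and Marco (-1.42), Itgad (-0.79) and Msr1 (-0.63) were lower. The summed macrophage level was 3078 to 3533 CPM in C57BL/6 and 2545 to 3187 CPM in MRL/MpJ. Neutrophil genes lay below 0 for 15 of 16 members. Ngp (-0.64) and Ly6g (-0.67) were called lower and Chil3 higher (1.24), and S100a8, at 1651 ± 154 against 2260 ± 180.3 CPM, missed the fold limit. Under 1 RUVg factor 7 neutrophil genes were called lower. The summed neutrophil level was 11620 to 14570 CPM in C57BL/6 and 15180 to 19860 CPM in MRL/MpJ.

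T cell genes had 4 of 16 lower, led by Cd3d (6.60 ± 1.25 against 26.8 ± 3.35 CPM), with Cd4 at -0.83, and its partners Cd3e (-0.65) and Cd3g (-0.57) were not called. B cell genes had 7 of 15 higher, among them the recombinase gene Rag1 (1.08) and Pax5 (0.79), and 1 lower, Jchain (-1.20). In contralateral joints 12 B cell genes were higher, and with 1 RUVg factor 4 were in injured joints. Marker genes of natural killer cells had 5 of 12 higher and 3 lower. Klra8, a receptor from a gene cluster that varies between strains, was at 0 in all MRL/MpJ libraries and between 0.237 and 0.997 CPM in C57BL/6. Mast cell genes had 2 of 13 higher and 1 lower. Tpsab1, a tryptase gene that the reference annotation lists as a transcribed pseudogene, was at 0.119, 0.386, 0.134, 0.0767 and 0.0926 CPM against 3.47, 3.87, 1.73, 3.27 and 1.86 CPM. Cma1, a chymase (0.87), was not called without C57BL/6 replicate 1 (0.60, adjusted p = 0.0707). Markers of white fat were higher in 5 of 12, led by Retn (2.60) and Cfd, and in 3 without the pair of libraries that stood apart, those of brown fat lower in 2 of 7 and in 0 with 1 RUVg factor (edgeR), and those of skin higher in 3 of 6 and lower in 1. Schwann cell and neurotrophin genes had 1 of 15 higher, Gap43 (1.41), and endothelial genes 3 of 15 higher and 1 lower.

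Groups of early and stress responses varied in how many of their members were called, beside 10.0% higher and 6.33% lower over all genes. Where only a few members were called, as for clock, heat shock, prostaglandin and proliferation genes, the count is not read as a strain difference of the group. Of 19 immediate early genes 0 were called in either direction by edgeR and 0 by DESeq2, and 5 passed an unadjusted p of 0.05, a level that 45.3% of all genes passed. With 1 RUVg factor 1 was called higher and 1 lower, and with housekeeping scaling 1 lower. Clock genes had 2 of 15 higher, Npas2 (1.01) and Arntl (0.86). Heat shock genes had 1 of 14 higher and 2 lower, both of which were lost with 1 RUVg factor (Hspb7 -0.32, adjusted p = 0.242, and Hspb1 -0.43, adjusted p = 0.29), and genes of the glucocorticoid and acute phase response 2 of 13 each way, with Saa3, serum amyloid A3, at 7.0 ± 2.79 against 1.63 ± 1.04 CPM and Pdk4 at 78.9 ± 36.0 against 292 ± 59.5 CPM. Proliferation genes had 2 of 18 lower, Mki67 (-0.68) and Ccne1 (-0.90). In the plasminogen and coagulation list 5 of 14 were higher, among them Plat (1.14), and 1 was lower. Prostaglandin and leukotriene genes had 3 of 20 higher, including Ptgs2, cyclooxygenase 2 (0.94), and 3 lower. Of 24 antioxidant genes 4 were higher, the secreted enzymes Gpx3 (1.13) and Sod3 (1.11) among them, and 4 lower, with Glo1 at -1.13. The 5 genes of the sex chromosomes had 1 lower, and of the 25 housekeeping genes of the study 0 were called by edgeR or by DESeq2 and 8 passed an unadjusted p of 0.05.

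**Figure D3:**
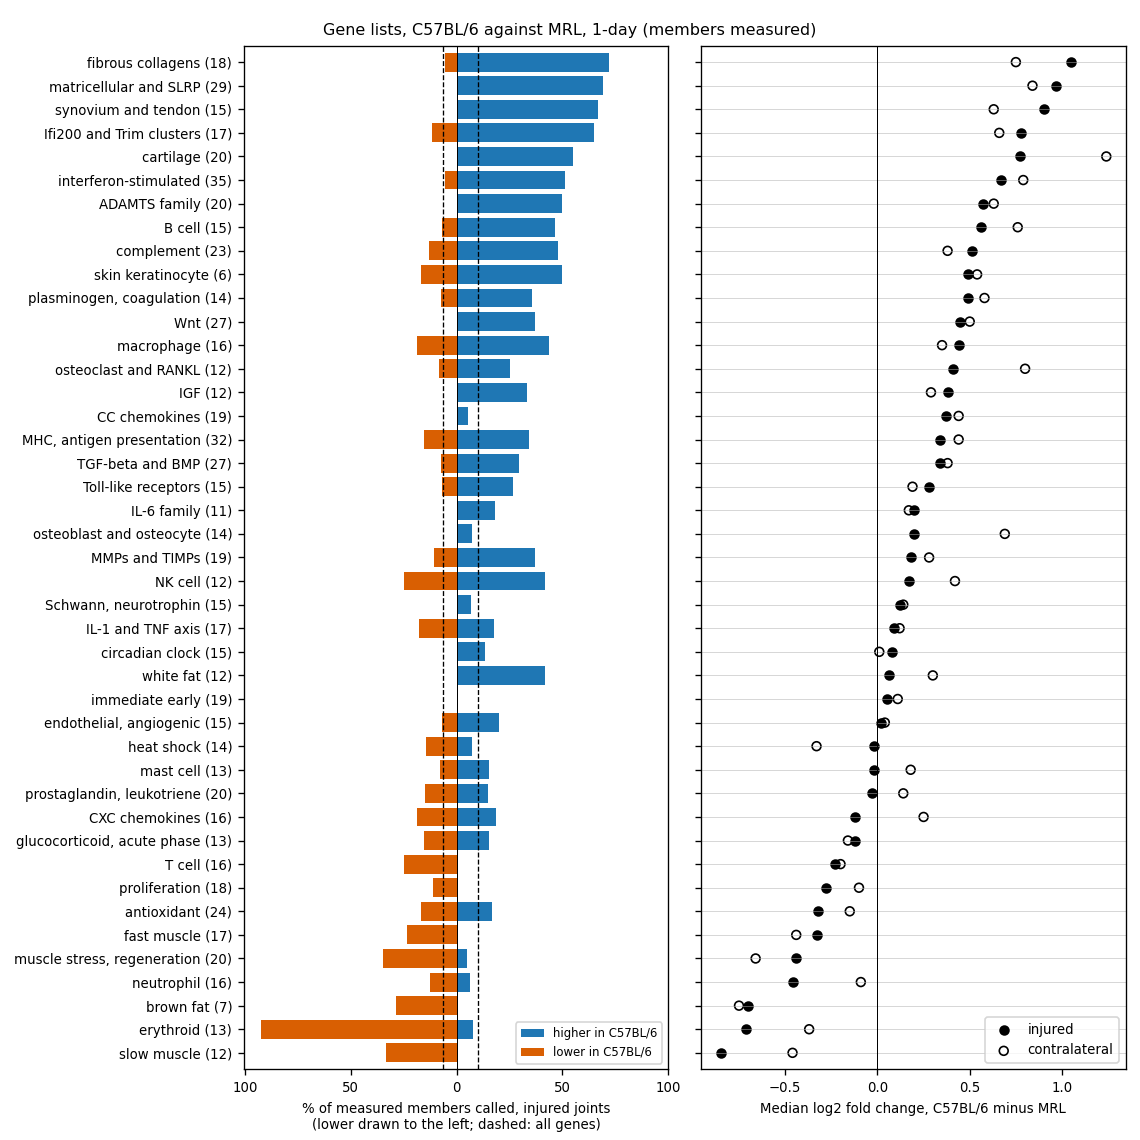
Gene lists ordered by their median log2 fold change in injured joints, with the number of measured members in brackets. Left, the share of members called higher (blue) or lower (orange) in C57BL/6, with dashed lines at the shares over all genes (10.0% higher, 6.33% lower); right, the median in injured (filled) and contralateral (open) joints, from 1.05 for fibrous collagens to -0.85 for slow muscle.

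The study had named lists of its own, chosen on these samples, so their direction here is not independent evidence. Of 35 metallopeptidases that it listed as raised by injury, 24 were higher in injured C57BL/6 and 0 lower, with Anpep (1.48), Aebp1 (1.34) and Cpxm2 (1.43) among them. Of 25 cytokines listed in the same way, 7 were higher and 2 lower, Tnf and Tnfsf18. All 21 genes that it listed for MRL/MpJ joints and digits were called, 16 higher and 5 lower, such as Rab6b (2.66) and B4galnt2 (-1.91). Of 13 genes named for 1-day, 5 were higher and 5 lower, and 5 and 3 with 1 RUVg factor. Pxdn, a peroxidase of basement membranes, averaged 73.4 ± 14.3 against 32.0 ± 2.97 CPM. Trpm1, a cation channel, averaged 0.738 ± 0.3 against 2.50 ± 1.16 CPM, and its call was lost with 1 RUVg factor (-1.0, adjusted p = 0.0693).

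Most of the strain difference in injured joints was shared by joints that were not injured. In contralateral joints 2563 genes were called between the strains (14.8%), 1558 higher (9.0%) and 1005 lower (5.81%) in C57BL/6. At 0-day 2751 were called (15.9%), 1668 higher (9.64%) and 1083 lower (6.26%). Of the 2828 genes called in injured joints, 1709 were called in the same direction in contralateral joints, which is 60.4% of the injured list and 66.7% of the contralateral list, and 0 in the opposite direction. With 0-day 1715 were shared, 60.6% and 62.3% of the lists, and 4 were opposite. The genes called higher at 0-day had a median log2 fold change of 0.97 at 0-day, 0.79 in contralateral joints and 0.84 in injured joints, and those called lower had -0.93, -0.76 and -0.75. Some 795 of the injured calls (28.1%) were made in neither uninjured comparison.

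**Figure D4:**
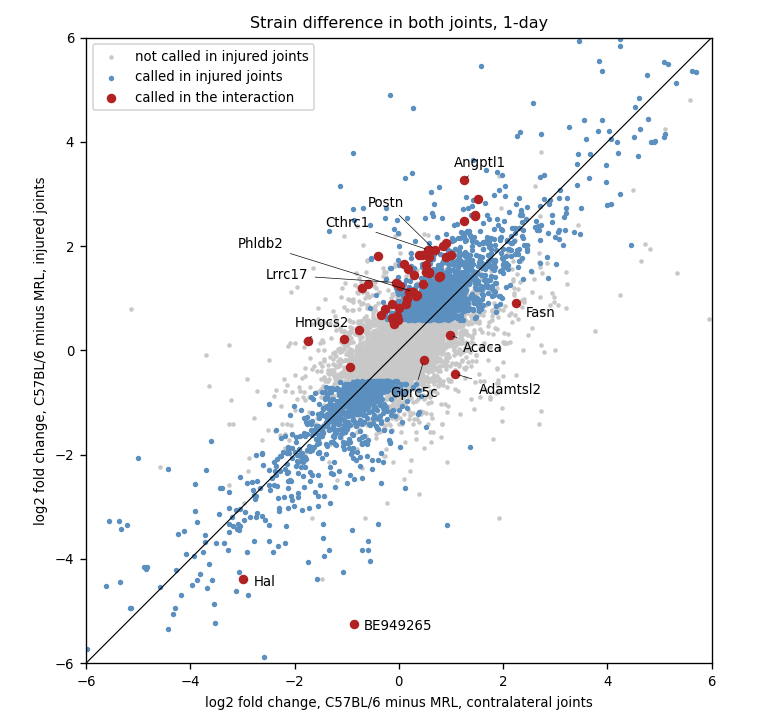
log2 fold change of C57BL/6 over MRL/MpJ in injured joints (vertical) against contralateral joints (horizontal), with 1 point per gene, genes called in injured joints in blue, genes called in the interaction in red, and the line of equality. The axes end at 6 on the log2 scale, which leaves 33 genes outside, and most of the 49 red points with a higher difference after injury lie above the line at positive injured values.

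Whether the strain difference changed with injury was tested by the interaction of strain and joint, that is the log2 difference in injured joints minus that in contralateral joints. It called 55 genes (0.318% of those tested), 49 with a higher difference in injured joints (0.283%) and 6 with a lower (0.0347%). Of the 795 genes called in injured joints and in no uninjured comparison, 19 (2.39%) were among them, in a test that shares the injured libraries. The number of interaction calls ranged from 25 to 120 when single libraries were left out, from 25 without MRL/MpJ injured replicate 3 to 120 without C57BL/6 injured replicate 2, and it was 43 without the pair that stood apart. In all 20 fits without a library and under all 10 other alternatives, 20 of the 55 genes were called.

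The 49 genes had a median log2 difference of 1.40 in injured and 0.30 in contralateral joints. At 0-day, in a separate fit, their median difference was 0.55, and 24 of them were already called higher in C57BL/6 and 1 lower. The median in contralateral joints was thus below that at 0-day, but the selection favours genes with a low contralateral and a high injured difference. This order is therefore no evidence of a change, and the same holds for the single genes below. Neither the contralateral nor the injured difference was tested against 0-day. Injured against contralateral joints, the median change of the 49 genes was 1.15 in C57BL/6 and 0.16 in MRL/MpJ. The selection fixes this order, since the interaction is the first response minus the second. Over all genes, injury gave 970 calls in C57BL/6 (5.60%), 738 of them up (4.26%) and 232 down (1.34%), and 350 in MRL/MpJ (2.02%), 264 up (1.53%) and 86 down (0.497%). The log2 difference of Postn was 0.69 in contralateral and 1.93 in injured joints (interaction 1.24, SE 0.16, adjusted p = 0.000246). At 0-day it was already 1.56, with 652 ± 73.9 CPM in C57BL/6 against 418 ± 42.9 CPM in the contralateral joints of that strain. Lrrc17, a secreted leucine-rich protein of bone and ligament, was at 119, 83.9, 99.0, 132 and 95 CPM in injured C57BL/6 and at 39.4, 43.8, 47.2, 38.4 and 46.3 CPM in injured MRL/MpJ, while the contralateral means were 35.2 ± 10.2 and 36.7 ± 2.87 CPM. Its difference at 0-day (0.55) was not called. Cthrc1, a secreted protein of injured tissue with a collagen repeat, averaged 105 ± 22.6 and 27.8 ± 5.45 CPM in injured and 27.6 ± 4.37 and 18.6 ± 1.3 CPM in contralateral joints. Angptl1 averaged 66.8 ± 9.36 and 6.95 ± 1.65 CPM in injured and 30.3 ± 4.55 and 12.7 ± 2.36 CPM in contralateral joints, higher in injured than in contralateral joints of C57BL/6 and lower in those of MRL/MpJ. The 0-day differences of Cthrc1 (1.40), Angptl1 (2.05) and Thbs2 (1.60) lay between the contralateral and the injured ones and were called. Dkk3 averaged 61.4 ± 9.62 CPM in 0-day C57BL/6 joints, 40.4 ± 3.02 in contralateral and 60.6 ± 8.61 in injured ones.

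Other members, named after their values were seen, were matrix genes and genes of macrophages. Col5a1 (interaction 0.93), Fbln2 (1.16), Aspn (1.38) and Thbs2 (0.82) were called in all fits without a library, and Col3a1 (1.16), Eln (1.03) and Has2 (1.20) in some. Apoe, the lipid carrier made by macrophages, was at 1093, 856, 1112, 1215 and 909 CPM in injured C57BL/6 and at 519, 471, 481, 530.1 and 465 CPM in injured MRL/MpJ (interaction 0.72, adjusted p = 0.00257). Trem2 (1.10), Gpnmb (1.13), Adgre1 (0.63) and C1qc (0.63), which mark macrophages, were called too, and in 8 (C1qc) to 16 (Gpnmb) of the 20 fits without a library. Of the 16 macrophage genes listed, 1 was called in the interaction, Adgre1, and Csf1r (0.17) and Folr2 (-0.10) were not. In injured joints Trem2 averaged 28.6 ± 4.62 against 9.22 ± 1.29 CPM and Gpnmb 50 ± 6.58 against 8.29 ± 2.08 CPM.

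The 6 genes with a lower difference after injury included 2 of fatty acid synthesis. Fasn, fatty acid synthase, was at 79.8, 79.2, 55.6, 60.7 and 80.1 CPM in injured C57BL/6 and at 36.3, 44.3, 37.4, 38.6 and 33.2 CPM in injured MRL/MpJ, with contralateral means of 179.5 ± 66.5 and 37.6 ± 5.13 CPM (interaction -1.34). Acaca, acetyl-CoA carboxylase, averaged 56.1 ± 7.89 and 45.7 ± 2.99 CPM in injured and 88.2 ± 19.1 and 44.7 ± 3.98 CPM in contralateral joints. In C57BL/6 both were lower in injured than in contralateral joints, with log2 changes of -1.33 and -0.65, and the values of 0.01 and 0.03 in MRL/MpJ were not called. Of 12 white fat markers 2 were called lower in the same C57BL/6 comparison, Retn (-1.26) and Cfd (-0.94), and 0 higher. The part of fat content was not tested. At 0-day, in a separate scaling, the means of C57BL/6 were 86.1 ± 25 CPM for Fasn and 54.8 ± 6.46 CPM for Acaca. Contralateral joints were not tested against 0-day, and selection by a negative interaction favours genes with high contralateral C57BL/6 values. Hal rose with injury in MRL/MpJ (0.94, adjusted p = 5.75e-05). Adamtsl2 did so as well (1.48), while Gprc5c and BE949265 were called in few of the fits without a library.

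**Figure D5:**
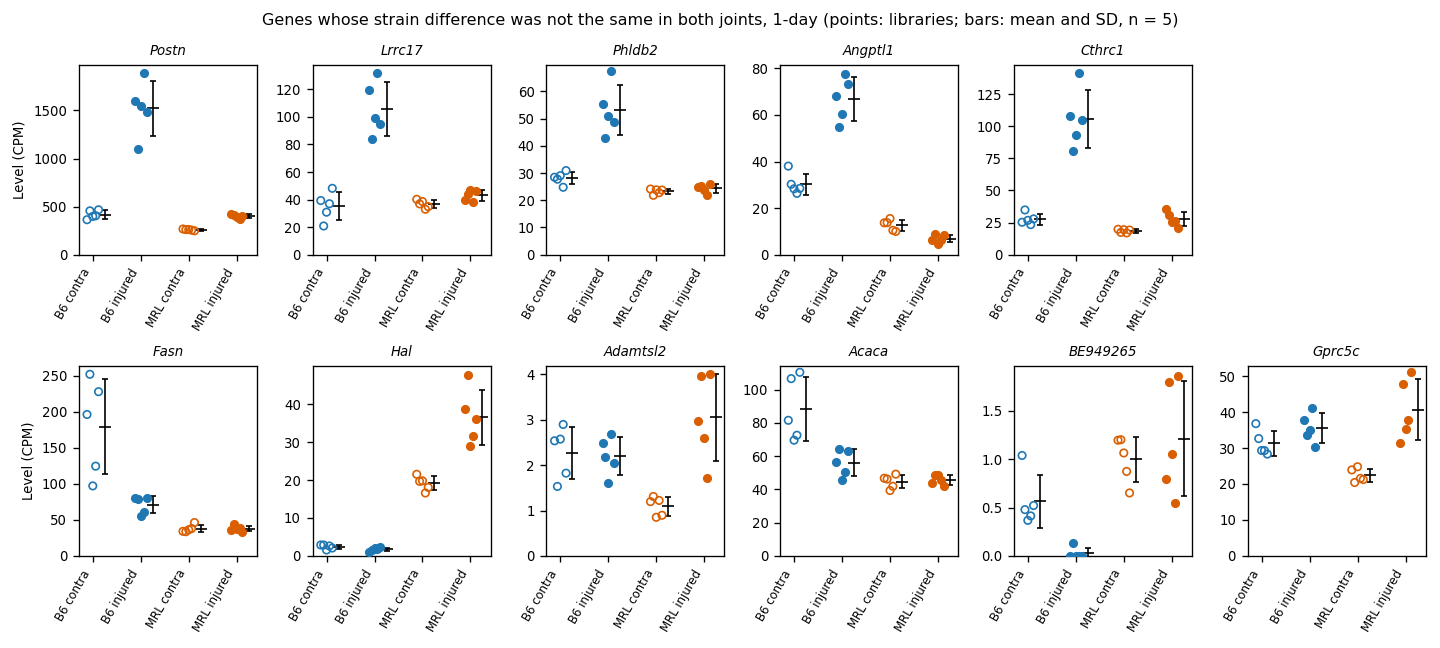
Level in CPM (linear axes from 0) of leading genes of the interaction, 5 with a higher and 6 with a lower difference after injury, in contralateral (open) and injured (filled) joints of C57BL/6 (B6, blue) and MRL/MpJ (MRL, orange), with 1 point per library and bars for mean and SD (n = 5). Postn, Lrrc17, Phldb2 and Cthrc1 are higher in the 5 injured C57BL/6 libraries than in the other libraries plotted, and Fasn and Acaca are highest in the contralateral C57BL/6 libraries.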

How the data were processed

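Libraries were poly(A) selected from whole knee joints. The authors aligned reads to mm10 with TopHat2 (version 2.0.11), counted them on RefSeq genes with featureCounts, and deposited 1 table of whole-number counts with no normalization. Strand use in counting is not given in the sources used here. Of 17313 entries 3 repeats were dropped, 24 names had turned into dates, and the study's filter of 2 counts in 5 libraries removed 0 genes.

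The 30 libraries of 1-day, with TMM factors and a mean per strain and joint, entered 1 edgeR fit (version 4.0.16, R 4.3.3), and the 12 of 0-day another. Both fits include STR/ort libraries, which share the estimate of the spread. The main test was the quasi-likelihood test, with Benjamini-Hochberg adjustment over all genes, and SEs were taken from the fold change and F. Levels are CPM with TMM factors, with a prior count of 2 before log2. No library pair was identical. Depth sets the precision of low genes, and counting intervals are not given where replicates show the spread. The study's own model, RUVSeq with 25 housekeeping genes, was an alternative with 1 factor. The others were RLE and housekeeping scaling, DESeq2 (version 1.42.0), other filters, the compared groups alone, a replicate block, and leaving out libraries. On simulated counts the script was tested with 200 changed genes.

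Genes are named by this rule: the 8 calls of lowest adjusted p each way (at least 1 CPM in the higher group, no predicted genes or receptor segments), the first 3 called of each list, the 6 leading interaction genes each way, and the study's genes for 1-day. A few genes that the rule takes are not reported here. Further members are given as examples, chosen after their values were seen. Groups, lists and members were chosen with earlier results of these data known. Positions and promoters are RefSeq on GRCm38.p6, the assembly of mm10, matched by symbol for 16662 genes, by synonym for 559 and for 89 not at all. Protein sequences were not used here.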

Additional observations from a re-analysis of the deposited data

Results flagged for a closer look

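For 19 of 299 groups of 5 libraries tested, the highest or lowest library lay farther from the others than Dixon's critical value allows, and chance gives about 1 in 20. The library was C57BL/6 replicate 3 in 7, C57BL/6 replicate 2 in 5, C57BL/6 replicate 1 in 3, C57BL/6 replicate 5 in 1 and MRL/MpJ replicate 5 in 3. In C57BL/6 replicate 3 the lowest values were those of Comp (255 CPM), Sost (17.0), Serpina3b (1.07) and Igfbp6 (27.3), and the highest those of Mybpc1 (1020.0), Cox7a1 (56.9) and H2-Ea-ps (0.134). This library had the lowest cartilage and the highest fast muscle sum of its group, and the part of tissue content was not tested. In C57BL/6 replicate 2 Trim30d (22.5), Tpsab1 (0.386), Krt78 (0.257) and BE949265 (0.129) were highest and Adamtsl1 (11.8) lowest. In C57BL/6 replicate 1 Cxcr2 (76.4), Cma1 (11.7) and Plin1 (22.1) were highest, and in C57BL/6 replicate 5 Kera (82.3). In MRL/MpJ replicate 5 Klra4 (0.0932), Glo1 (213) and Zbtb16 (52.0) were highest, beside the largest fast muscle sum of all 10 libraries. For BE949265, Krt78, H2-Ea-ps and Klra4 the flagged library held 1 or 2 reads and the others of its group 0, which fixes the flag.

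For 19 of the genes named, the strain difference in injured joints differed from that in contralateral joints by the interaction test in edgeR. On the log2 scale the interaction was 1.24 for Postn, 1.36 for Lrrc17, 0.85 for Phldb2, 2.01 for Angptl1, 1.36 for Cthrc1, 0.91 for Anpep, 0.82 for Thbs2, 0.98 for Dkk3, 1.38 for Sfrp2, 1.2 for Has2, 1.11 for Col14a1, 0.63 for Adgre1 and 0.63 for C1qc. It was -1.34 for Fasn, -1.4 for Hal, -1.53 for Adamtsl2, -0.68 for Acaca, -4.37 for BE949265 and -0.67 for Gprc5c.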

How the results depend on the processing

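The 2828 calls in injured joints ranged from 2514 to 2942 without single libraries (higher 1545 to 1851, lower 969 to 1110), and 2105 of the genes (74.4%) were called in all 10 fits without an injured library. Contralateral calls ranged from 2379 to 2612 (higher 1421 to 1582, lower 909 to 1112), 0-day calls from 2407 to 2799 (higher 1436 to 1681, lower 910 to 1186), and the shared calls from 1599 to 1758 with contralateral joints and from 1573 to 1790 with 0-day. The interaction count of 55 was 30 with housekeeping scaling, 98 in DESeq2, and 25 to 120 without single libraries (higher 22 to 99, lower 2 to 21). It was moved most by leaving out MRL/MpJ injured replicate 3 (25), C57BL/6 injured replicate 1 (26), MRL/MpJ contralateral replicate 1 (27), C57BL/6 injured replicate 4 (29), C57BL/6 contralateral replicate 3 (29) and 4 (36), MRL/MpJ contralateral replicate 3 (36), and C57BL/6 injured replicate 2 (120), and the cause was not tested. With 5 instead of 10 counts in each library of the other strain, 12 genes rather than 7 were at 0 in a strain. Of 150 named genes, 14 lost their call with RUVg, among them the muscle genes Myh1, Mybpc1, Myoz2 and Tnnt1, and 4 with housekeeping scaling (Il6st, Atp6v0d2, Ptgis, Ltbp1). With 1 RUVg factor the calls also moved to 3 higher natural killer cell genes, 4 higher clock genes, 5 lower CXC chemokine genes, 4 lower MMP and TIMP genes and 3 lower mast cell genes, and with housekeeping scaling to 4 lower neutrophil, 3 lower mast cell and 3 higher white fat genes. Reversed were Gprc5c with RUVg (0.04, adjusted p = 0.823) and Ccl7 without C57BL/6 injured replicate 4 (-0.1, adjusted p = 0.838), neither of them called. Ccl7 ranged up to 0.27, without MRL/MpJ injured replicate 2. Adamtsl2 was called only without MRL/MpJ replicate 4 (-0.60). Flt1 and Ptgis crossed the fold limit in 4 and 5 fits without a library.

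With the replicate number as a replicate block, 2814 genes were called in injured joints and no named gene changed its call. Deviations of joints with the same number correlated at 0.09 to 0.253 in C57BL/6 and -0.349 to 0.4 in MRL/MpJ, with 2 of 5 joints best matched by their own number in each strain. The labels do not say whether a number marks a mouse and these values do not settle it, so the numbers were not used as pairs.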

Other observations

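Among the nuclear chromosomes, the share of genes called between the injured strains was lowest on chromosome 2 (173 of 1311 genes, 13.2%) and highest on chromosome 12 (146 of 684 genes, 21.3%). On chromosome 17, which holds the major histocompatibility complex, 63 genes were higher and 73 lower in C57BL/6, and on chromosome 15 the values were 69 and 25. No test was made of these shares.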
